A study of Mus musculus with 4 samples.

Results

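The core genes of macroautophagy were followed in RNA sequencing counts from 4 mouse T cell libraries. A list of 36 genes was matched by name to the count table, 35 of which were found among its 22672 named entries. Atg101, a subunit of the initiation complex, had no entry under that name and is not analysed here. All 35 passed the filter on low counts that left 12758 genes for testing. The T cells came from the spleens of Pmel mice, whose T cell receptor, a transgene, recognises an epitope of gp100. All cultures received the cognate peptide at 1 µg/ml with IL2 at 100 U/ml for 72 h. Of the 4 libraries, 2 were labelled WT control and 2 were labelled SphK1 -/-, that is, lacking sphingosine kinase 1. The labels give no age, no number of animals and no design of the allele, so p-values measure only the spread between these libraries, which may be technical. Sphk1, the targeted gene, ran against the labels, with 2 and 4 reads in the controls and 35 and 18 reads under the knockout label (log2 fold change 3.12, edgeR adjusted p = 0.0233), so groups are named by their label throughout. That call was lost with DESeq2 (adjusted p = 0.0682), among genes with few shared words (edgeR adjusted p = 0.129), and without WT control 1, WT control 2 or SphK1 -/- 1 (edgeR adjusted p = 0.162, 0.0746 and 0.239).

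Autophagy encloses cytoplasm in a double membrane, the autophagosome, which then fuses with the lysosome. The ULK1 kinase complex starts the process, the class III phosphatidylinositol 3-kinase complex marks the membrane, ATG9 and ATG2 supply lipid, and a pair of ubiquitin-like conjugation reactions attach proteins of the ATG8 family (the LC3 and GABARAP proteins) to it. Cargo receptors link ubiquitinated material to ATG8 proteins, and the factors TFEB and TFE3 drive genes of the pathway and of the lysosome. In CD8 T cells autophagy is known for its part in memory formation and survival.

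Of the 35 genes, 3 rose in the libraries labelled SphK1 -/-: Gabarapl2 and Map1lc3b, which encode ATG8 proteins, and Atg4a, a protease that trims them. The other 32 did not pass the test, with log2 fold changes from −0.37 to 0.39. Genes were tested with edgeR's quasi-likelihood test and Benjamini-Hochberg adjustment over all 12758 genes at a threshold of 0.05, and log2 fold changes are libraries labelled SphK1 -/- over WT control. The 3 genes make up 8.57% of the 35, near the 6.00% of all tested genes that were called higher and the 6.75% called in either direction. Calls in the other direction numbered 0 of 35, against 0.752% of all tested genes. At an unadjusted p under 0.05, 3 of the 35 were lower, against 4.38% of all tested genes, and DESeq2 and limma-voom also called 0 lower. Scaling by library totals alone called 10 of the 35 lower, against 11.2% of all tested genes.

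Each of the 3 genes that rose has a nearly identical copy of its coding sequence elsewhere in the genome. All 30-base words of a gene's transcripts were compared with those of the other annotated genes that do not overlap it. Words shared with such genes made up 61.3% of Atg4a, 15.7% of Gabarapl2 and 8.45% of Map1lc3b. Among the other 32 genes, Rb1cc1 (9.79%) and Atg2b (8.11%) had shares of like size without passing the test, and the remaining 30 shared at most 2.83% of their words. Of all tested genes with over 5% shared words 31.0% were called higher, against 1.45% of those with at most 5%. Calls in the lower direction made up 0.818% and 0.699% of these 2 classes. The share called higher was 11.8% of genes with 5% to 10% shared words, the range that holds Map1lc3b, Rb1cc1 and Atg2b. It was 33.3% of genes with 10% to 20%, the range that holds Gabarapl2, and 39.5% of genes with over 60%, the range that holds Atg4a. Reads from a gene and its copy can be assigned to either, so the counts of the 3 genes are uncertain. The table also has 720 entries without a name that hold counts in the controls (1.13% and 1.17% of their totals) and are marked as missing in both libraries labelled SphK1 -/-. The sources used here do not say how reads that fit several places were counted or whether both groups were counted alike. The part of the counting in these rises was not tested.

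The matching stretches below show how little separates the 3 genes from their closest copies. Each line gives 90 coding bases, and the capital marks the single base at which the copy differs. Stretches were chosen to hold a difference near the middle and otherwise as few differences as possible. They are examples, and the bases in common over the aligned coding sequence give the closeness. Gabarapl2 on chromosome 8 is matched by the processed pseudogene Gm3724 on chromosome 5, which has 347 of 349 aligned coding bases in common with it and an unbroken run of 156.
Gabarapl2: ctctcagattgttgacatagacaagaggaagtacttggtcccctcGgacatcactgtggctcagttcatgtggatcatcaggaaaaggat
Gm3724: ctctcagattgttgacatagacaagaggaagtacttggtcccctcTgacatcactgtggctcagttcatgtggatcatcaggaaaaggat
Map1lc3b on chromosome 8 is matched by the processed pseudogene Gm6055 on chromosome 14, with 377 of 378 coding bases in common.
Map1lc3b: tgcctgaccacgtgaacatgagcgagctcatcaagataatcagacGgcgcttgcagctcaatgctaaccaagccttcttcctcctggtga
Gm6055: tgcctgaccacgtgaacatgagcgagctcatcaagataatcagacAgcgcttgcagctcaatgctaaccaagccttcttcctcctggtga
Atg4a on chromosome X is matched by Atg4a-ps on chromosome 3, which the annotation lists as protein coding, with 1184 of 1191 coding bases in common and an unbroken run of 509.
Atg4a: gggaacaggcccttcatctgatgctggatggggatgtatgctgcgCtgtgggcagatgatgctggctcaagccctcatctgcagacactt
Atg4a-ps: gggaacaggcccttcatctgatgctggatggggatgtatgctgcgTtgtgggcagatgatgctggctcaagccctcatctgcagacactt
Counted from the 5′ end of each stretch, the differences are G46T in Gm3724, G46A in Gm6055 and C46T in Atg4a-ps. Atg4a also shares 14.9% of its words with Syt6, a protein-coding gene on chromosome 3 that has an entry in the count table. Further processed pseudogenes share at least 100 words with Gabarapl2 (Gm6051 and Gm5829) and with Map1lc3b (Gm12727, Gm6054 and Gm5612). Gm3724, Gm6055, Atg4a-ps and these further pseudogenes have no entry under their names in the count table. The sequences are from GENCODE release M21 (GRCm38).

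The ATG8 family held the largest rise among the 35 genes. Its proteins are made with a carboxyl tail that ATG4 proteases remove to expose a glycine, the residue by which they are joined to phosphatidylethanolamine. The last 60 coding bases of the 5 members are shown because this end is the substrate of the ATG4 enzymes described below. Capitals mark the codon of that glycine.
Gabarap: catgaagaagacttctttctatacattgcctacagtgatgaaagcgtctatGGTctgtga
Gabarapl1: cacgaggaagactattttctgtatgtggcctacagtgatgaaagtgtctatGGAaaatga
Gabarapl2: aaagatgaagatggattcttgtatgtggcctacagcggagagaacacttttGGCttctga
Map1lc3a: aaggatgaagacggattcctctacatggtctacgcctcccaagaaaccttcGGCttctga
Map1lc3b: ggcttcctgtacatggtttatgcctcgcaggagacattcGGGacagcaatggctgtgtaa
The glycine is followed by 1 codon before the stop in Gabarap, Gabarapl1, Gabarapl2 and Map1lc3a, and by 5 in Map1lc3b. The 5 coding sequences differ from one another far more than Gabarapl2 and Map1lc3b differ from their copies. Their identity ran from 54.4% (Gabarapl1 with Map1lc3a) to 77.5% (Map1lc3a with Map1lc3b), and the longest identical run between any pair was 17 bases, below the word length of 30.

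Gabarapl2, also known as GATE-16, lies on chromosome 8 from 111940703 to 111953612 on the plus strand (GRCm38). It had 375 and 320 reads in WT control 1 and 2 and 2740 and 2986 reads in the libraries labelled SphK1 -/- 1 and 2. As CPM, which divides counts by library sizes scaled by the trimmed mean of M-values (TMM), these were 7.98, 6.38, 58.3 and 61.5. Both libraries labelled SphK1 -/- lay far above both controls, and the replicates of each group lay close together. The group means were 7.18 ± 1.135 CPM and 59.9 ± 2.26 CPM (SD, n = 2 each), a log2 fold change of 3.06 ± 0.16 (SE), or 8.34-fold, with an adjusted p of 2.21e-06 in edgeR.

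Map1lc3b encodes LC3B, the ATG8 protein most used to mark autophagosomes, and lies on chromosome 8 from 121590361 to 121598760 on the plus strand. Its level was 29.7 and 27.3 CPM in WT control 1 and 2 and 64.9 and 65.5 CPM in the libraries labelled SphK1 -/- 1 and 2. The groups did not overlap. The rise was 1.19 ± 0.12 (SE) on the log2 scale, or 2.29-fold (edgeR adjusted p = 0.000175).

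The other 3 members of the family did not pass the test. Gabarap stood at 137.2 and 134.7 CPM in the controls and at 150.1 and 127.8 CPM in the libraries labelled SphK1 -/-. These groups overlapped, and the log2 fold change of 0.031 had a 95% interval from −0.24 to 0.30. Gabarapl1 stood at 60.1 and 54.8 CPM against 46.7 and 52.3 CPM, lower in both libraries labelled SphK1 -/- (−0.22 ± 0.12 SE, edgeR adjusted p = 0.482). Another gene on the opposite strand, 1700101I11Rik, covers 28.3% of its exons. Map1lc3a, which encodes LC3A, was scarce at 2.64 and 2.27 CPM against 2.70 and 1.48 CPM, with more difference between the libraries labelled SphK1 -/- than between the groups.

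Levels per kilobase of exon allow the 5 members to be compared with one another. Gabarap supplied 65.3% and 67.3% of the summed CPM per kb of the 5 genes in the controls and 57.9% and 52.6% in the libraries labelled SphK1 -/-. Gabarapl2 supplied 3.02% and 2.53% in the controls and 17.8% and 20.1% in the libraries labelled SphK1 -/-. The sum itself was 113.9 and 108.6 CPM per kb in the controls and 140.6 and 131.7 CPM per kb under the knockout label. These shares carry the same uncertainty as the counts of Gabarapl2 and Map1lc3b.

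**Figure D1:**
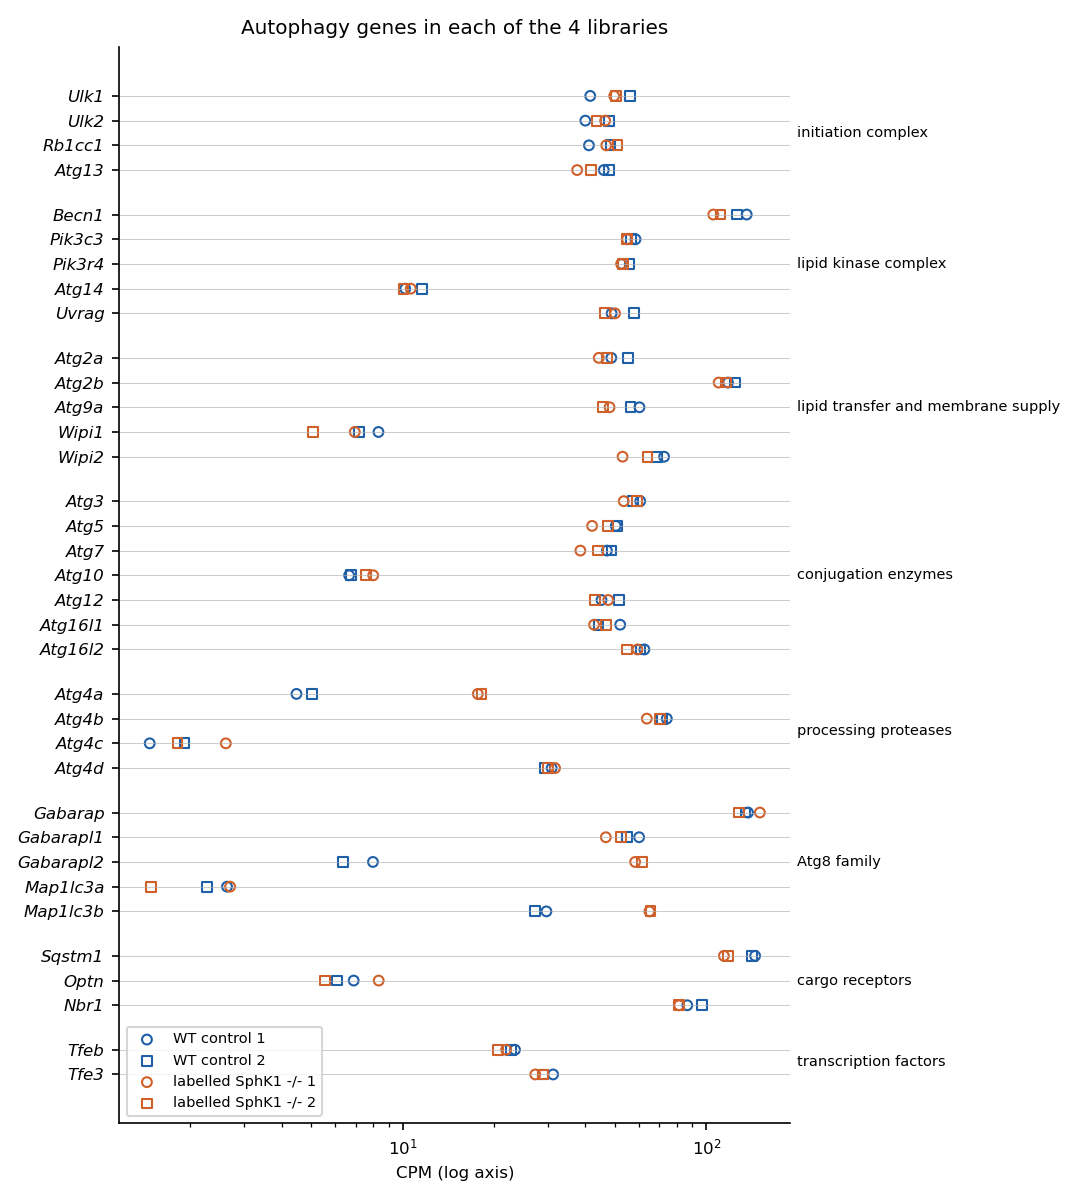
Level of each of the 35 autophagy genes in CPM (log axis) in the 4 libraries, grouped by role. The libraries labelled SphK1 -/- (orange) lie well to the right of the WT controls (blue) for Atg4a, Gabarapl2 and Map1lc3b, while the symbols of the other genes lie close together or overlap.

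The ATG4 proteases cut the tail of ATG8 proteins and later release them from lipid. Atg4a, on chromosome X from 140956907 to 141164270 on the plus strand, had 210 and 253 reads in the controls and 831 and 883 in the libraries labelled SphK1 -/-, or 4.47, 5.04, 17.7 and 18.2 CPM. Again the groups lay far apart, with a log2 fold change of 1.91 ± 0.18 (SE), or 3.77-fold (edgeR adjusted p = 0.000144). Atg4b, the paralog with the broadest action on ATG8 proteins, stood at 74.1 and 71.5 CPM against 63.7 and 70.5 CPM (log2 fold change −0.12, 95% interval −0.37 to 0.14). Atg4d differed by 0.035 on the same scale, with overlapping groups. Atg4c was the scarcest of the 35 genes per exonic length, at 69 and 96 reads in the controls and 123 and 88 in the libraries labelled SphK1 -/-. Its log2 fold change of 0.39 had a 95% interval from −0.36 to 1.13, which limits what its depth could show.

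The initiation complex joins the kinases ULK1 and ULK2 to the scaffold FIP200, encoded by Rb1cc1, and to ATG13. None of its 4 measured genes passed the test. Ulk1 was at 41.5 and 56.1 CPM in the controls and at 49.7 and 50.4 CPM in the libraries labelled SphK1 -/-, so both of the latter lay between the controls. Ulk2 (0.036) and Rb1cc1 (0.13) also had log2 fold changes within the spread of their libraries. Rb1cc1 shares 9.59% of its words with the processed pseudogene Gm13961 on chromosome 2. Its levels were 41.1 and 48.3 CPM in the controls and 46.8 and 51.0 CPM in the libraries labelled SphK1 -/-, which overlap. Atg13 was lower in both libraries labelled SphK1 -/-, at 37.5 and 41.8 CPM against 46.0 and 47.7 CPM (log2 fold change −0.24, edgeR adjusted p = 0.417).

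The lipid kinase complex consists of the catalytic subunit VPS34 (Pik3c3), its partner VPS15 (Pik3r4), Beclin 1 (Becn1) and either ATG14 or UVRAG. All 5 genes had negative log2 fold changes, from −0.27 to −0.040, and 0 passed the test. Becn1 was at 135.8 and 126.3 CPM in the controls and at 105.4 and 111.4 CPM in the libraries labelled SphK1 -/-. These groups did not overlap (log2 fold change −0.27 ± 0.11 SE, edgeR adjusted p = 0.272). Pik3c3 stood at 58.5 and 56.5 CPM against 54.8 and 54.9 CPM, a log2 fold change of −0.067 with a 95% interval from −0.31 to 0.18. Atg14, which directs the complex to the autophagosome, was at 10.9 ± 0.964 CPM in the controls and at 10.4 ± 0.402 CPM in the libraries labelled SphK1 -/- (SD, n = 2 each). Uvrag, the subunit of the endosomal form, and Pik3r4 also overlapped between groups.

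Genes of lipid transfer and membrane supply were each lower in both libraries labelled SphK1 -/- than in both controls, and 0 of 5 passed the test. Atg9a, which encodes the membrane-spanning lipid scramblase of the pathway, was at 60.2 and 56.2 CPM in the controls and at 48.0 and 45.6 CPM in the libraries labelled SphK1 -/-. The change of −0.32 ± 0.11 (SE) on the log2 scale had an edgeR adjusted p of 0.198. Wipi2, a phosphoinositide reader that recruits ATG16L1, was at 72.6 and 68.7 CPM against 53.0 and 64.0 CPM (−0.27, adjusted p = 0.372). Wipi1 had the lowest log2 fold change of the 35, −0.37, on 391 and 361 reads in the controls and 327 and 246 in the libraries labelled SphK1 -/-, with a 95% interval from −0.89 to 0.16. The lipid channels Atg2a and Atg2b had log2 fold changes of −0.19 and −0.098. Groups did not overlap, in the lower direction, for 23.8% of all tested genes.

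The conjugation enzymes attach ATG12 to ATG5 and ATG8 proteins to lipid, and 0 of their 7 genes passed the test. Atg7, the shared activating enzyme, stood at 47.1 and 48.7 CPM in the controls and at 38.5 and 44.0 CPM in the libraries labelled SphK1 -/- (log2 fold change −0.22, edgeR adjusted p = 0.492). Atg5 stood at 50.3 and 50.7 CPM against 42.1 and 47.3 CPM, or −0.18 with a 95% interval from −0.44 to 0.091. Atg10, the conjugating enzyme for ATG12, was the single gene with a positive value, at 6.66 and 6.76 CPM against 7.999 and 7.58 CPM (0.21, edgeR adjusted p = 0.689). Atg3, Atg12 and Atg16l1 overlapped between the groups, and Atg16l2 had a log2 fold change of −0.11.

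Among cargo receptors, Sqstm1, which encodes p62, was lower in both libraries labelled SphK1 -/- without passing the test. It stood at 144.8 and 141.4 CPM in the controls and at 114.2 and 118.1 CPM in the libraries labelled SphK1 -/-, with little difference inside each group. Its change of −0.30 ± 0.10 (SE) on the log2 scale had an unadjusted p of 0.0201 and an edgeR adjusted p of 0.192. Nbr1 followed at 86.6 and 96.8 CPM against 81.3 and 81.1 CPM (−0.17, adjusted p = 0.554). Optn, which encodes optineurin, a receptor for damaged mitochondria and bacteria, was at 6.90 and 6.08 CPM against 8.34 and 5.56 CPM, with the libraries labelled SphK1 -/- on either side of the controls.

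Sqstm1, Atg9a and Becn1 were the 3 genes with an unadjusted p under 0.05 in the lower direction, and each shares exonic bases with another gene. Mrnip on the opposite strand covers 17.3% of Sqstm1, Gm29253 on the same strand covers 31.8% of Atg9a, and Cntd1 on the opposite strand covers 43.9% of Becn1. Without a stated strand setting, reads from partners on the opposite strand cannot be told apart, and strand would not separate those of Gm29253. Over 10% of the exons were covered in 6 of the 35 genes, the others being Gabarapl1, Atg4d and Uvrag. Among all tested genes with over 10% overlap 5.80% had an unadjusted p under 0.05 in the lower direction, against 4.11% of the rest. Cntd1 held 141 and 259 reads in the controls and 237 and 230 in the libraries labelled SphK1 -/-, and Becn1 held 6380 and 6334 against 4956 and 5410. Mrnip and Gm29253 have no entry under those names in the count table. The part of overlapping genes in the values of Sqstm1, Atg9a and Becn1 was not tested.

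**Figure D2:**
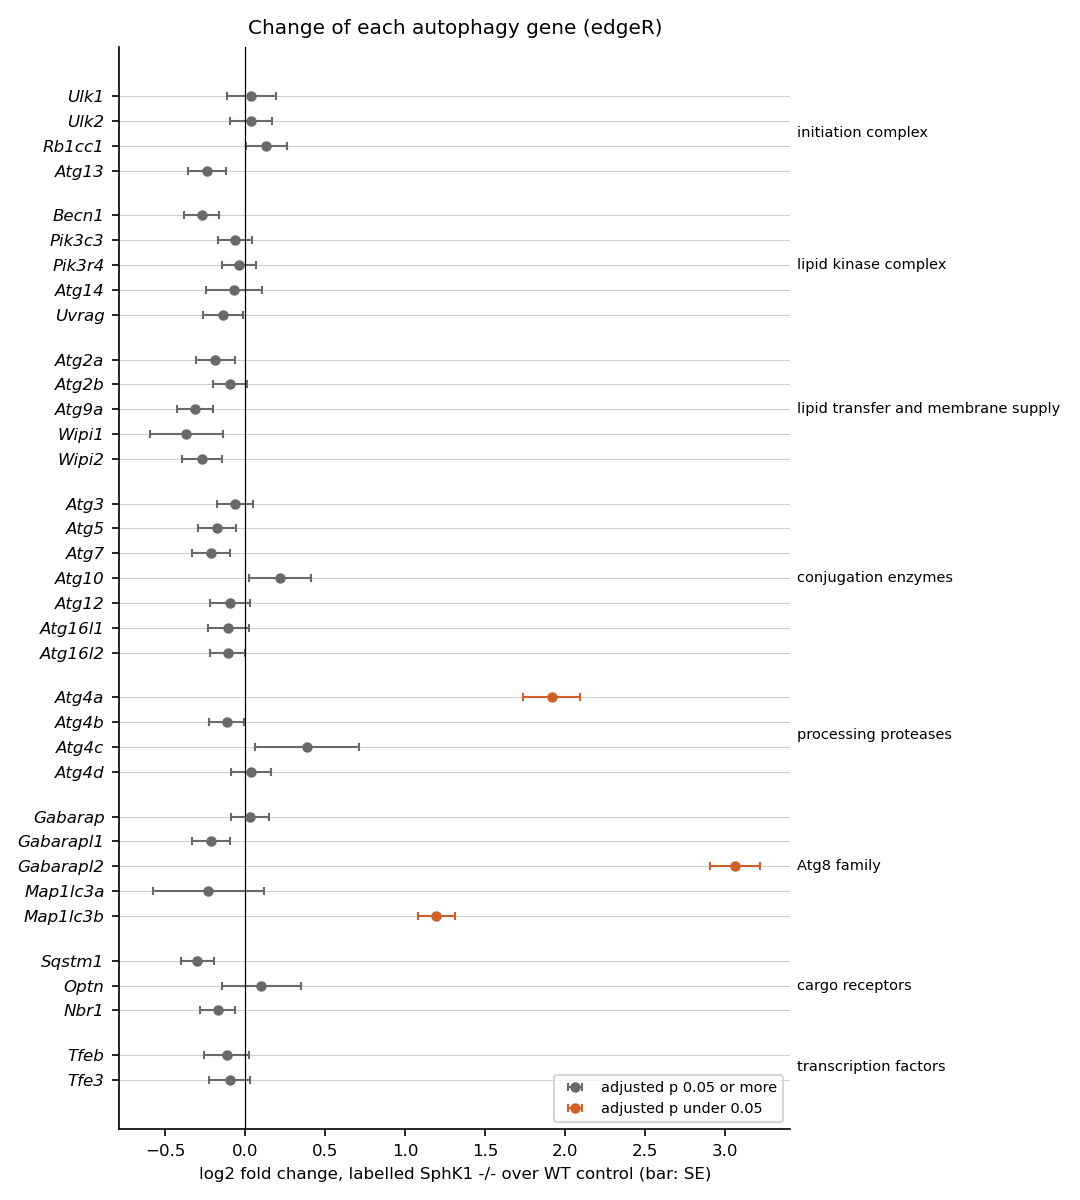
Log2 fold change of each autophagy gene, libraries labelled SphK1 -/- over WT control, with its standard error, grouped by role. Atg4a (1.91), Gabarapl2 (3.06) and Map1lc3b (1.19) passed the test (orange), and the other 32 genes (grey) lie between −0.37 and 0.39.

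Seen over all 35 genes, small negative values were more frequent than positive ones. Log2 fold changes were negative for 24 genes and positive for 11, with a median of −0.099, beside a median of −0.021 and 53.8% negative over all 12758 tested genes. In 17 of the 35 both libraries labelled SphK1 -/- lay below both controls, against 23.8% of all tested genes, and in 4 they lay above, against 21.0%. The size of these values depended on scaling. With library totals alone the median of all tested genes moved to −0.26 and that of the 35 to −0.34, and the 10 of the 35 called lower stood against 11.2% of all genes, with 3 called higher against 5.11%. Both libraries labelled SphK1 -/- then lay below both controls in 25 of the 35, against 57.9% of all tested genes, and above them in 3, against 10.3%. Relative to the median of all genes, the median of the 35 then lay as far down as with TMM scaling. Among genes with at most 5% shared words and 10% overlap, fitted alone, 24 of the 35 were tested, 18 were negative, and their median was −0.066 against −0.0022 for all 9098 genes of that fit. There 0 of 24 passed the test in either direction.

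Tfeb and Tfe3, which encode the transcription factors of the pathway, did not pass the test. Tfeb stood at 23.4 and 22.7 CPM in the controls and at 21.9 and 20.6 CPM in the libraries labelled SphK1 -/-, a log2 fold change of −0.12 with a 95% interval from −0.43 to 0.20. Tfe3 stood at 31.3 and 29.0 CPM against 27.3 and 28.9 CPM (−0.099, interval −0.39 to 0.20). These factors bind the sequence CACGTG and its longer form TCACGTG. Promoter sequences from RefSeq (GRCm38.p6), running from 250 bases before to 50 bases after each start, were matched for 29 of the 35 genes. CACGTG, read on both strands, occurred in 4 of the 29 (13.8%), against 8.09% of 27025 genes, and TCACGTG, which contains it, in 3 (10.3%) against 4.29%. The stretches before the start are shown to let the sites be compared, with the motif in capitals.
Atg3, first site, chr16:45158713-45158762 on the plus strand: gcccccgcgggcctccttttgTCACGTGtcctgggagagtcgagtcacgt
Atg3, second site, chr16:45158736-45158785 on the plus strand: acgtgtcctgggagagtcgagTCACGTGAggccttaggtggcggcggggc
Atg5, chr10:44268303-44268338 on the plus strand: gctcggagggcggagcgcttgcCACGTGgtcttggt
Atg7, at an internal start, chr6:114670942-114670991 on the plus strand: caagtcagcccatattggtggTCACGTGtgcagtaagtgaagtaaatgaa
The match in Atg14 lies after the start. The genes with a match were not among those that rose, and a match is a description of these letters, not a measured binding site.

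Per kilobase of exon, Gabarap was the most abundant of the 35 genes in both groups. It stood at 73.7 ± 0.961 CPM per kb in the controls and at 75.3 ± 8.57 CPM per kb in the libraries labelled SphK1 -/- (SD, n = 2 each). Sqstm1 came next, at 42.6 ± 0.719 and 34.6 ± 0.824 CPM per kb. In the controls Gabarapl1 (28.5 ± 1.85 CPM per kb), Atg5 (21.5 ± 0.114), Atg3 (18.7 ± 0.745) and Becn1 (18.5 ± 0.958) followed, of which Atg3 and Becn1 did not differ beyond their spread. Ulk1 and Ulk2, at 7.52 ± 1.60 and 7.34 ± 0.925 CPM per kb, also lay within each other's spread. Atg4c was last, at 0.505 ± 0.0938 CPM per kb. The 3 genes that rose changed places: Gabarapl2 was in place 28 in the controls and in place 3 under the knockout label, Map1lc3b in 26 and 11, and Atg4a in 32 and 18. In the controls the level of Gabarapl2, at 3.09 ± 0.488 CPM per kb, lay beside that of Rb1cc1 (3.04 ± 0.3499). This match depended on the length used: per kilobase of the longest transcript the levels were 4.28 ± 0.677 and 5.88 ± 0.676.

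**Figure D3:**
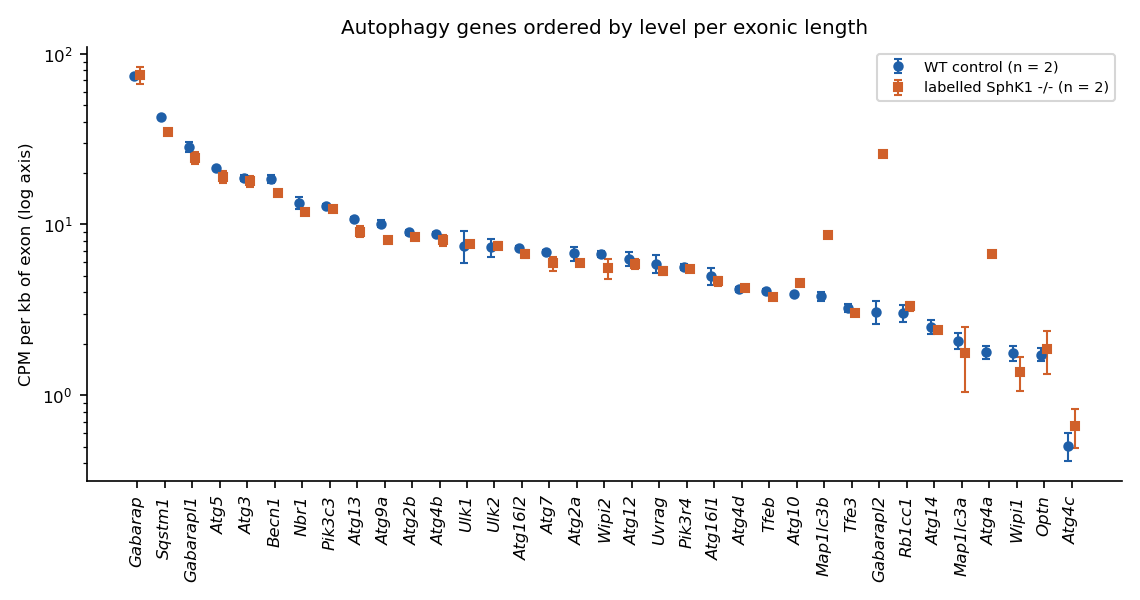
Level of each autophagy gene in CPM per kilobase of exon (log axis), in the order of the WT control means, with SD over 2 libraries. Gabarap leads at 73.7 in the controls and 75.3 in the libraries labelled SphK1 -/-, Atg4c is last, and Gabarapl2, Map1lc3b and Atg4a leave the order of the controls.

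A second list held 65 genes around the core machinery, covering the lysosome, selective receptors, complex regulators, autophagosome fusion and upstream signalling, of which 63 were in the table and 61 were tested. In it 5 genes rose and 0 fell, or 8.20% higher beside 6.00% of all tested genes, with a median of −0.052. With DESeq2, without WT control 1 and without SphK1 -/- 2, 6 genes of this list were called higher. At an unadjusted p under 0.05, 6 of the 61 were higher and 1 was lower, beside 10.5% and 4.38% of all tested genes. The gene that was lower is Wdr45, a phosphoinositide-binding protein (−0.47, edgeR adjusted p = 0.123), named here after its value was seen. The 5 are Ncoa4, the receptor for ferritin, Bnip3, a mitophagy receptor, Rab7, a GTPase of late endosomes and fusion, Nrbf2, a subunit that binds ATG14, and Tmem41b, a lipid scramblase of the endoplasmic reticulum. Ncoa4 stood at 5.17 and 6.40 CPM in the controls and at 130.2 and 131.6 CPM in the libraries labelled SphK1 -/- (log2 fold change 4.50 ± 0.15 SE, edgeR adjusted p = 1.6e-07). Rab7 went from 39.1 and 41.8 CPM to 232.1 and 251.4 CPM (2.58 ± 0.12 SE, adjusted p = 1.12e-06).

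Bnip3 was at 167.2 and 115.5 CPM in the controls and at 390.7 and 355.2 CPM in the libraries labelled SphK1 -/- (log2 fold change 1.40 ± 0.18 SE, edgeR adjusted p = 0.00103). Nrbf2 (1.78 ± 0.16 SE) and Tmem41b (1.41 ± 0.13 SE) had adjusted p values of 0.000124 and 0.000105 in edgeR. All 5 have copies: they share 18.9% (Ncoa4), 49.96% (Bnip3), 17.5% (Rab7), 76.8% (Nrbf2) and 12.4% (Tmem41b) of their words with other genes. Their counts are therefore uncertain too, to a degree that was not measured. Of the 7 tested genes of this list with over 5% shared words 5 rose, while 0 of the 54 with at most 5% passed the test in either direction. The remaining pair, named here after their values were seen, is Bnip3l, a paralog of Bnip3 (0.67, edgeR adjusted p = 0.111), and Wdr45b (0.033).

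Lysosomal genes, which TFEB and TFE3 are known to drive, did not pass the test in any of 10 cases, with log2 fold changes from −0.36 (Ctsl, a cathepsin) to 0.23 and a median of −0.047. Hexa, a lysosomal hexosaminidase, had a value of −0.27 (edgeR adjusted p = 0.417). In the fusion list, 1 of 14 tested genes rose (Rab7), and Vps16, a subunit of the tethering complexes, stood at 167.3 and 148.0 CPM against 129.7 and 138.1 CPM (−0.24, adjusted p = 0.409). Upstream signalling, with AMPK, MTORC1 and FoxO genes, had 0 calls in 18, from −0.57 (Prkaa2, an AMPK subunit at under 0.5 CPM in each library) to 0.16. Rraga, a Rag GTPase that recruits MTORC1 to lysosomes, was at 82.1 and 57.4 CPM in the controls and at 52.1 and 59.1 CPM in the libraries labelled SphK1 -/- (−0.33, adjusted p = 0.446). Without WT control 2 it was called lower (−0.56, adjusted p = 0.0373).

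**Figure D4:**
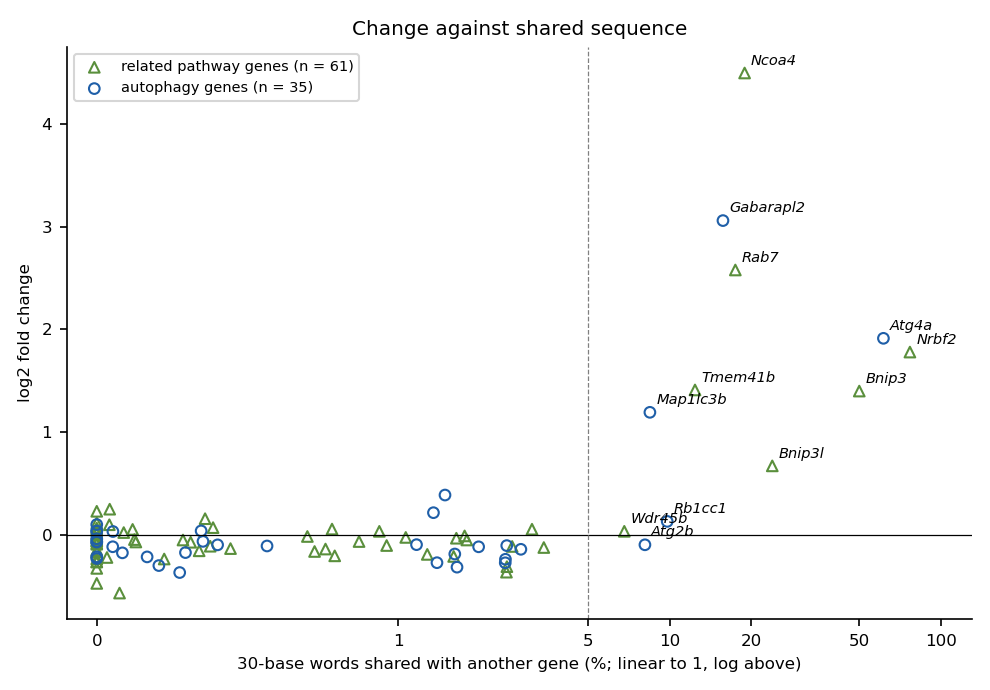
Log2 fold change against the share of 30-base words found in another gene, for the 35 autophagy genes (circles) and the 61 tested genes around them (triangles), with genes over 5% (dashed line) named. Each gene above a value of 1 lies to the right of the line, while Rb1cc1, Atg2b and Wdr45b lie there with values near 0.

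The libraries themselves set limits on these values. Total counts were 44277592 and 46449606 in the controls and 50538355 and 53640611 in the libraries labelled SphK1 -/-. The 35 genes held 0.188% and 0.194% of named counts in the controls and 0.158% and 0.157% under the knockout label. With TMM scaling their summed CPM was 1748 and 1769 against 1699 and 1727. Without Gabarapl2, Map1lc3b and Atg4a the sum was 1706 and 1730 CPM in the controls and 1558 and 1582 CPM under the knockout label. Cytotoxic T cell markers were present in each library, at a sum of 4062 and 4564 CPM in the controls and 4146 and 4409 CPM under the knockout label, with 0 of 8 called. B cell markers summed to 135.8 and 142.3 CPM in the controls and to 299.5 and 144.3 CPM under the knockout label, with 1 of 5 called higher. Natural killer markers summed to 48.0 and 32.6 against 79.0 and 50.4 CPM, with 1 of 4 tested called higher. Most of each sum was Eomes, at 40.62 and 26.15 against 57.88 and 36.24 CPM. Ncr1 stood at 0.66 and 0.757 against 1.85 and 1.38 CPM. Dendritic cell markers summed to at most 9.27 CPM (1 of 4 tested called higher), macrophage markers to at most 7.72, neutrophil markers to at most 1.89 and erythroid markers to at most 0.412, with Hba-a1 and the natural killer gene Klra8 at 0. Helper T cell markers summed to between 18.7 and 40.4 CPM. The part of other cells in the changes above was not tested. In bulk RNA, fewer cells of a type and less RNA per cell cannot be told apart.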

How the data were processed

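The deposited table holds raw counts per gene for 4 libraries, per the values and the labels. TopHat2 2.0.13, cutadapt 1.11, DESeq2 1.14.1, HTSeq 0.6.1p1 and the build GRCm38 stand in the submitters' processing notes, with no role for each. Which annotation was counted, whether strand was used and what was done with reads of several matches is not given in the sources used here. Left out were 720 entries without a name, which hold 1.13% and 1.17% of control counts and are marked as missing under the knockout label, and 27 entries that carry a date (0.261% to 0.312%).

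Counts were tested in R 4.3.3 with edgeR 4.0.16 by a quasi-likelihood F test, after filterByExpr at a minimum count of 10 and TMM scaling, with adjustment by Benjamini-Hochberg over all genes tested; the steps were checked on simulated data. The SE is the absolute log2 fold change over the square root of F, and 95% intervals use the degrees of freedom of the fit. Alternatives used DESeq2 1.42.0, limma 3.58.1, other scalings, no filter, a replicate block, leaving out each library, and genes with few shared words. Shared words, overlaps and exonic lengths came from GENCODE M21 transcripts, which matched 22389 named genes. Copies outside annotated genes were not searched.

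Named were all members, called genes of the second list, and the 2 largest changes of each of its sublists. Members and lists were chosen with earlier results of these data known. Depth covers counting error only.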

Additional observations from a re-analysis of the deposited data

How the results depend on the processing

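The 3 rises held in 11 of 11 alternatives that tested them, with log2 fold changes of 2.82 to 3.26 for Gabarapl2, 1.67 to 2.01 for Atg4a and 0.95 to 1.28 for Map1lc3b. In the fits of genes with few shared words (at most 5%, with 10% overlap) and with 0% of both, these genes are absent by construction, so calls higher were 0 and 0 for the autophagy genes, 0 and 0 for the second list, and 62 and 7 over all genes, with 9 and 1 lower. With library totals alone, calls lower became 10 (autophagy), 8 (second list) and 1432 (all genes). The replicate block gave 942 genes higher in place of 765 and 178 lower in place of 96. It called the same 3 autophagy genes higher, and 6 in place of 5 genes of the second list higher. Same-numbered libraries did not deviate together (correlation −0.037 over 12758 genes). With 2 libraries per group, this correlation cannot show whether same-numbered libraries were paired or handled together. Leaving out 1 library gave 3 to 3 autophagy genes higher and 0 to 0 lower, 0 to 1 of the second list lower (1 without WT control 2), and 87 to 230 of all genes lower (230 without WT control 2).

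Sphk1 had a log2 fold change of 3.19 with DESeq2 and 3.16 in the fit with few shared words, and lost its call in both. Leaving out 1 library moved its log2 fold change from 2.54 to 3.64. Signs changed 22 times among the uncalled autophagy genes and the uncalled genes of the second list named for the largest changes in their sublists. Signs of other uncalled genes were not followed. With library totals alone the log2 fold changes were −0.20 for Ulk1, −0.20 for Ulk2, −0.11 for Rb1cc1, −0.024 for Atg10, −0.20 for Atg4d, −0.21 for Gabarap and −0.14 for Optn. The median of all tested genes moved as well, from −0.021 with TMM scaling to −0.26. Over the fits that left out 1 library, log2 fold changes ran from −0.13 to 0.28 for Ulk1, −0.057 to 0.18 for Ulk2, −0.051 to 0.0088 for Pik3r4, −0.13 to 0.028 for Atg14, −0.14 to 0.0078 for Atg3, −0.17 to 0.0083 for Atg12 and −0.21 to 0.047 for Atg16l1. They ran from −0.0023 to 0.10 for Atg4d, −0.089 to 0.14 for Gabarap, −0.73 to 0.14 for Map1lc3a, −0.22 to 0.36 for Optn and −1.01 to 0.18 for Prkaa2. In the fit with no shared words Pik3r4 stood at 0.0021. For these sign changes the cause was not tested. With the longest transcript in place of all exons, 4 of the 35 genes moved by over 5 places in the order of levels, and the largest move was 9.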
